A study of Mus musculus with 4 samples.

Results

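Endothelin signalling in the lower jaw and the Hand transcription factors were followed through 8 genes, *Edn1*, *Ednra*, *Ece1*, *Mef2c*, *Hand1*, *Hand2*, *Gnaq* and *Gna11*. Members were the probe sets that the platform annotation assigns to exactly 1 of these symbols, which gave 23 of the 45037 probe sets on the arrays and covered 7 of the 8 genes. *Ednra* had none under that rule and was not analysed here. A probe set is the group of short array probes that together read 1 transcript or part of it.

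RNA was measured on 4 arrays of a mouse GeneChip with 1 colour, 1 array each for wild-type and Hand2NC at embryonic day (E) 11.5, labelled whole-body, and at E12.5, labelled head. Hand2NC stands for Hand2 CAT/+; Wnt1-Cre, on the same mixed C57BL/6J x ICR background as the wild-type, which were littermates. In these mice Cre, expressed in neural crest under *Wnt1* control, removes a lox-flanked CAT cassette, after which a transgene under the CAG promoter makes *Hand2*. The RNA came from all cells of the body or the head and was pooled over embryos before hybridisation. So 1 array stands for each group, no difference below has a replicate check, and no p-value was computed. In such bulk RNA, fewer cells of a type and less RNA per cell cannot be told apart.

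Endothelin-1 is a peptide made by the epithelium and core of the ventral branchial arches. Endothelin-converting enzyme, encoded by *Ece1*, cuts it from its precursor, and the receptor encoded by *Ednra* receives it on neural crest cells. The receptor works through the G protein alpha subunits encoded by *Gnaq* and *Gna11*, and the MADS-box factor Mef2c, the Dlx homeobox factors and the bHLH factors Hand2 and Hand1 act below it in the mandibular arch. Hand2 is also made in heart, limb bud, sympathetic neurons and gut, and Mef2c in muscle, endothelium and neurons.

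Signals were brought to a trimmed mean of 500 on every array, and differences are given as log2 of these signals. The array medians lay between 97.2 and 106. A probe set counts as kept in a comparison when the brighter of the compared arrays reaches the median of that array, and as called when it also differs at least 2-fold. The local spread of a probe set is how widely the log2 differences of the 500 probe sets of most similar brightness scatter, as a robust standard deviation. With no replicates it takes the place of an error, although true differences between the arrays widen it as well as noise does.

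Some facts of the whole series bear on these genes. At E11.5 the labelled whole body was borne out by organ genes, with 13 of 15 heart muscle and 9 of 9 liver genes kept in the genotype comparison and median wild-type signals of 1119 and 1607. In E12.5 heads the same medians were 45.2 and 36.2. The 3' to 5' ratios of the control probe sets ranged from 1.36 to 1.48 for *Actb* and from 0.804 to 0.890 for *Gapdh*. The E12.5 Hand2NC array lacked Y-linked signal (*Kdm5d*, 677 in wild-type and 8.72 in Hand2NC), so the pools of that stage also differed in the sex of the embryos. No member lies on X or Y, and whether sex took part in any E12.5 difference was not tested.

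*Hand2*, the gene altered by design, had the largest genotype difference among kept members, by 1 of its 2 kept probe sets. Probe set 1422221_at, which the annotation ties to the RefSeq mRNA of the gene, had signals of 67.1 in wild-type and 314 in Hand2NC at E11.5. At E12.5 it had 33.4 in wild-type and 706 in Hand2NC. Both wild-type arrays lay below their medians for it (0.691 and 0.315 times the median), whereas both Hand2NC arrays lay above (3.10 and 6.95 times). The log2 difference was 2.23 at a local spread of 0.32 at E11.5, a 4.68-fold higher signal, and 4.40 at a spread of 0.33 at E12.5, a 21.2-fold higher one. Counted from the highest, it ranked 8 of 23384 kept probe sets at E11.5 and 2 of 23362 at E12.5. It was kept through the Hand2NC arrays alone, and the size of both differences rests on dim wild-type values. With all values below the array median raised to that median the differences were 1.69 and 2.74, and the ranks 2 and 1.

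The other *Hand2* probe sets behaved differently. Probe set 1436041_at had signals of 1214, 1244, 592 and 839 in the order wild-type E11.5, Hand2NC E11.5, wild-type E12.5 and Hand2NC E12.5, at least 5.59 times the median of every array. At E11.5 its genotype difference was 0.04 at a spread of 0.15, and it turned to -0.02 with arrays centred on their medians. At E12.5 it was 0.50 at a spread of 0.15, a 1.42-fold higher signal in Hand2NC, and it ranged from 0.48 to 0.56 over the other scalings and treatments of dim values. The probe set 1443854_at lay at no more than 0.0805 times the median on all 4 arrays, and its log2 differences of -2.30 and -0.58 have local spreads of 1.79 and 1.77. The stretch of transcript that each probe set reads, and whether it is part of the transgene, was not analysed here.

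The genotype difference in *Hand2* was larger in the E12.5 heads than in the E11.5 bodies by both kept probe sets, of which 1436041_at was above the median on all 4 arrays and 1422221_at in Hand2NC only. The difference of the genotype differences was 2.18 for 1422221_at and 0.47 for 1436041_at, at local spreads of 0.43 and 0.21. For 1422221_at it was 1.05 with dim values raised, since the wild-type signals, both below the median, also differed between stages. The stages also differ in the tissue taken, and stage and tissue cannot be told apart. In the E12.5 heads, marker lists for other tissues that make *Hand2* were summed. The sums were 7001 in wild-type and 7869 in Hand2NC for 15 heart muscle genes and 3338 and 2966 for 10 limb bud genes. For 10 genes of sympathetic neurons they were 3505 and 3622. Of those kept, 2 of 5, 0 of 4 and 2 of 9 were higher beyond the spread and 0, 2 and 3 were lower, where 16.3% of all genes were higher and 15.8% lower. Several defining heart genes, such as *Myl2* with 19.9 and 3.93, were dim in both heads. Most of the heart sum came from *Actc1*, with 4155 and 4841. Most of the limb bud sum came from *Shox2*, with 1988 and 1899, and *Tbx15*, with 924 and 657, whereas *Hoxd13* had 18.1 and 13.7. These genes were named after their values were seen. The sums need not stand for heart or limb bud tissue, and the part of these tissues was not tested.

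**Figure D1:**
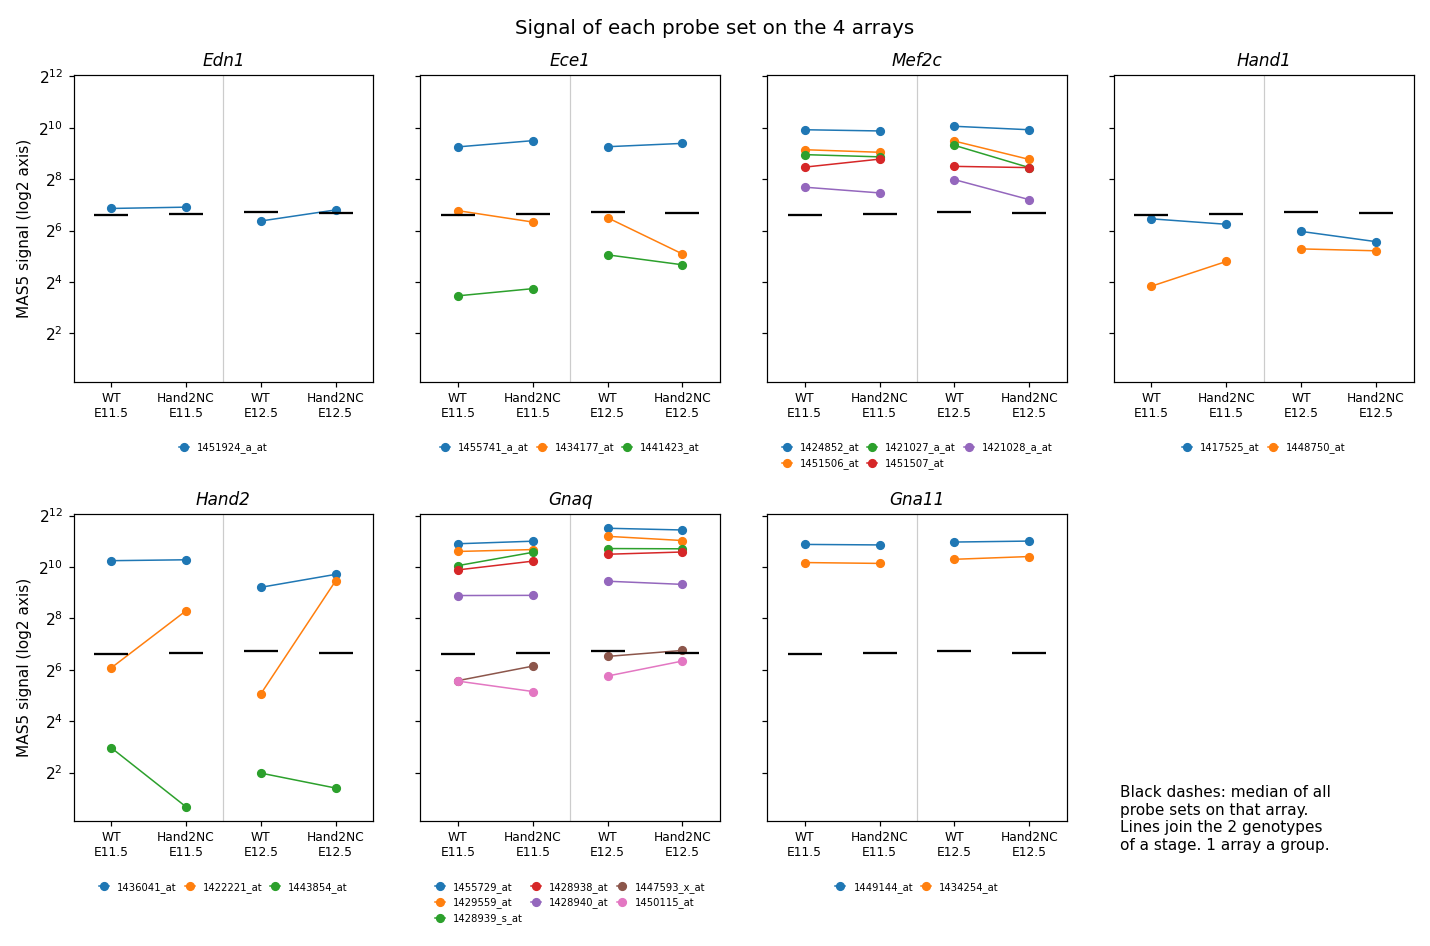
MAS5 signal (vertical log2 axis) of each probe set on the 4 arrays, 1 panel per gene; lines join wild-type (WT) and Hand2NC of a stage, and black dashes mark the array medians. The *Hand2* probe set 1422221_at goes from 67.1 to 314 and from 33.4 to 706, while both *Hand1* probe sets stay below the medians.

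*Hand1*, the other Hand gene and one that Hand2 is known to regulate in the mandibular arch, was dim throughout. Probe set 1417525_at had signals of 87.9 and 75.9 in wild-type and Hand2NC at E11.5 and of 62.6 and 47.5 at E12.5. The highest of these was 0.905 times its array median. Its log2 genotype differences were -0.21 and -0.40 at local spreads of 0.46 and 0.52, and the E11.5 value turned to 0.06 with dim values raised to the median. Probe set 1448750_at, annotated from the same sequence record, had signals of 14.3 and 27.8 at E11.5 and of 39.1 and 37.1 at E12.5. Its difference of 0.96 at E11.5, at a spread of 0.83, went the opposite way and fell to 0.06 with dim values raised. Neither probe set was kept in any comparison, so a difference in *Hand1* was not detectable with these signals.

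*Mef2c* gave the clearest pattern among the genes that were not altered by design, and it did so in the E12.5 heads. All 5 of its probe sets lay above the median on all 4 arrays. At E12.5 all 5 were lower in Hand2NC, 3 of them by more than the local spread, and 0 reached 2-fold. The others differed by less than their spread, and 1 of those, 1451507_at, turned to 0.01 with arrays centred on their medians. Of all 23362 kept probe sets at E12.5, 18.4% were lower beyond their spread.

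By probe set the *Mef2c* values were as follows. Probe set 1421027_a_at had signals of 497 in wild-type and 468 in Hand2NC at E11.5, and of 639 and 350 at E12.5. The log2 difference was -0.09 at E11.5 and -0.87 at E12.5, at spreads of 0.20 and 0.19, and the later one is a 1.82-fold lower signal. Probe set 1451506_at had 567 and 529 at E11.5 and 716 and 437 at E12.5. It differed by -0.10 and by -0.71, at spreads of 0.18 and 0.17. The dimmest, 1421028_a_at, had 206 and 177 at E11.5 and 253 and 147 at E12.5, with differences of -0.22 and -0.78 at spreads of 0.27 and 0.28. These 3 were the probe sets with a clear difference in heads, between -0.66 and -0.87 under every scaling and treatment of dim values tried.

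The remaining *Mef2c* probe sets did not share it. Probe set 1424852_at had signals of 972 and 941 at E11.5 and of 1067 and 972 at E12.5, which gave log2 differences of -0.05 and -0.13, each within a spread of 0.14. Probe set 1451507_at had 355 and 440 at E11.5 and 362 and 350 at E12.5, with a difference of 0.31 at a spread of 0.21 at E11.5 and of -0.05 at E12.5. Both are annotated from the same sequence record as 1451506_at, so probe sets of 1 record disagreed at E12.5. The mean over the 5 probe sets was -0.03 at E11.5 and -0.51 at E12.5, with a standard deviation between probe sets of 0.20 and 0.39. Which *Mef2c* isoforms each reads was not analysed here.

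Between stages, *Mef2c* mostly lay within the local spread. In wild-type all 5 were higher in the E12.5 head than in the E11.5 body, by 0.03 to 0.36 on the log2 scale, and 0 of them by more than the local spread. The lowest of these, 1451507_at, turned below 0 under 3 of the 6 other scalings and treatments of dim values. In Hand2NC 4 of 5 were lower in the head, down to -0.42, and 1 of them, 1421027_a_at, by more than the spread, as were 15.9% of all kept probe sets.

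Cell types that make *Mef2c* gave the following beside its difference in heads. Of 13 neuron genes, all kept, 7 were lower and 0 higher in Hand2NC at E12.5 by more than the local spread, and their summed signal was 53672 in wild-type and 48714 in Hand2NC. Over all genes 16.3% were higher and 15.8% lower by that much. Of 11 kept skeletal muscle genes 4 were higher and 3 lower, with summed signals over the 13 listed genes of 4985 and 4934. *Myf5*, an early myogenic factor, was the muscle gene past 2-fold, with 81.2 and 177 at E12.5 (log2 difference 1.13) and 192 and 421 at E11.5 (1.13). Of 11 kept endothelial genes 3 were higher and 2 lower, with summed signals over 12 genes of 5873 and 6166. At E11.5, 7 of 10 kept skeletal muscle genes were higher and 0 lower in Hand2NC, with summed signals of 6989 and 8238. Over all genes at E11.5, 15.8% were higher and 17.1% lower. Of the 5 *Mef2c* probe sets, 1 had a higher signal in Hand2NC at E11.5, 1451507_at with 0.31, and 4 a lower one. Their mean was -0.03. Among the defining genes of these types, the muscle genes *Myf6* and *Chrnd* were dim on all 4 arrays, at no more than 44.3 and 8.50. These were named after their values were seen, as was *Myf5*. The part of these cell types in the *Mef2c* differences was not tested.

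*Edn1*, the ligand gene, was read by a single probe set, 1451924_a_at, near the middle of the signal range. Its signals were 116 in wild-type and 120 in Hand2NC at E11.5, and 82.9 and 112 at E12.5. Only the E12.5 wild-type array lay below its median, at 0.783 times the median, and the other 3 lay between 1.10 and 1.20 times. The log2 genotype difference was 0.05 at a spread of 0.38 at E11.5, and -0.01 with arrays centred on their medians or quantile normalised. At E12.5 it was 0.43 at a spread of 0.39, a 1.35-fold higher signal in Hand2NC, and it was 0.08 with dim values raised to the median. Of all kept probe sets at E12.5, 15.6% were higher beyond their spread, and this probe set, at 1.11 spreads, was 1 of those.

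*Ece1*, the gene of the enzyme that releases endothelin-1, was read by 3 probe sets, of which 1, 1455741_a_at, was bright. It had signals of 612 and 724 in wild-type and Hand2NC at E11.5 and of 615 and 673 at E12.5. The log2 difference was 0.24 at a spread of 0.17 at E11.5 and 0.13 at a spread of 0.15 at E12.5. Probe set 1434177_at had signals of 110 and 80.6 at E11.5 and of 90.5 and 34.1 at E12.5. At E11.5 it was kept and differed by -0.44 at a spread of 0.49, opposite in sign to the bright one. Its difference of -1.41 in heads, also opposite to the bright probe set, lay below the signal filter and was -0.06 with dim values raised to the median. Probe set 1441423_at lay between 0.113 and 0.314 times the medians.

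Of the G protein genes, *Gna11* differed by less than the spread between genotypes. It was read by 2 bright probe sets that agreed within 0.07 at each stage. Probe set 1449144_at had signals of 1882 and 1857 at E11.5 and of 2007 and 2060 at E12.5, and 1434254_at had 1154 and 1128, then 1260 and 1357. The log2 genotype differences were -0.02 and -0.03 at E11.5 and 0.04 and 0.11 at E12.5, all within the local spread.

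*Gnaq* was read by 7 probe sets, 5 of them far above the medians on every array. The highest, 1455729_at, had signals of 1916 and 2053 at E11.5 and of 2911 and 2778 at E12.5. Its genotype differences were 0.10 and -0.07, each within a spread of 0.12. At E11.5, 2 of the 5 bright probe sets were higher by more than the spread, where 18.6% of all kept probe sets were. Probe set 1428939_s_at, whose suffix marks a sequence shared by several transcripts, went from 1062 to 1521, a difference of 0.52 at a spread of 0.12. Probe set 1428938_at went from 946 to 1199, a difference of 0.34 at a spread of 0.14. Probe set 1428940_at, from the same sequence record as these, had 474 and 476, a difference of 0.01. At E12.5 the first of the 3 had -0.01, the second 0.09 and the third -0.12, and the bright set 1429559_at had -0.16 at a spread of 0.11. The remaining probe sets were dim: 1447593_x_at had 47.7 and 70.6, then 91.7 and 108, and 1450115_at had 47.1 and 35.6, then 54.1 and 81.0. So no genotype difference in *Gnaq* beyond the spread was shared by all of its bright probe sets.

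Over all members, the genotype comparison thus called 1 of 17 kept probe sets at each stage, and both calls were *Hand2* 1422221_at, which passed the filter only through the array where it is high. When both arrays had to reach their median, 0 members were called at either stage. The background over all kept probe sets was 0.787% at E11.5 and 0.907% at E12.5, of which 0.440% and 0.385% were higher in Hand2NC. Without *Hand2*, 0 of 15 kept probe sets were called at E11.5, with the largest absolute log2 difference at 0.52, and 0 of 15 at E12.5, with the largest at 0.87. The median over the kept members was 0.04 at E11.5 and -0.01 at E12.5, against 0.00 and -0.01 over all kept probe sets. Beyond the local spread, 5 of 17 were higher and 0 lower at E11.5, where 18.6% and 15.7% of all kept probe sets were. At E12.5, 3 were higher and 4 lower, where 15.6% and 18.4% were.

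**Figure D2:**
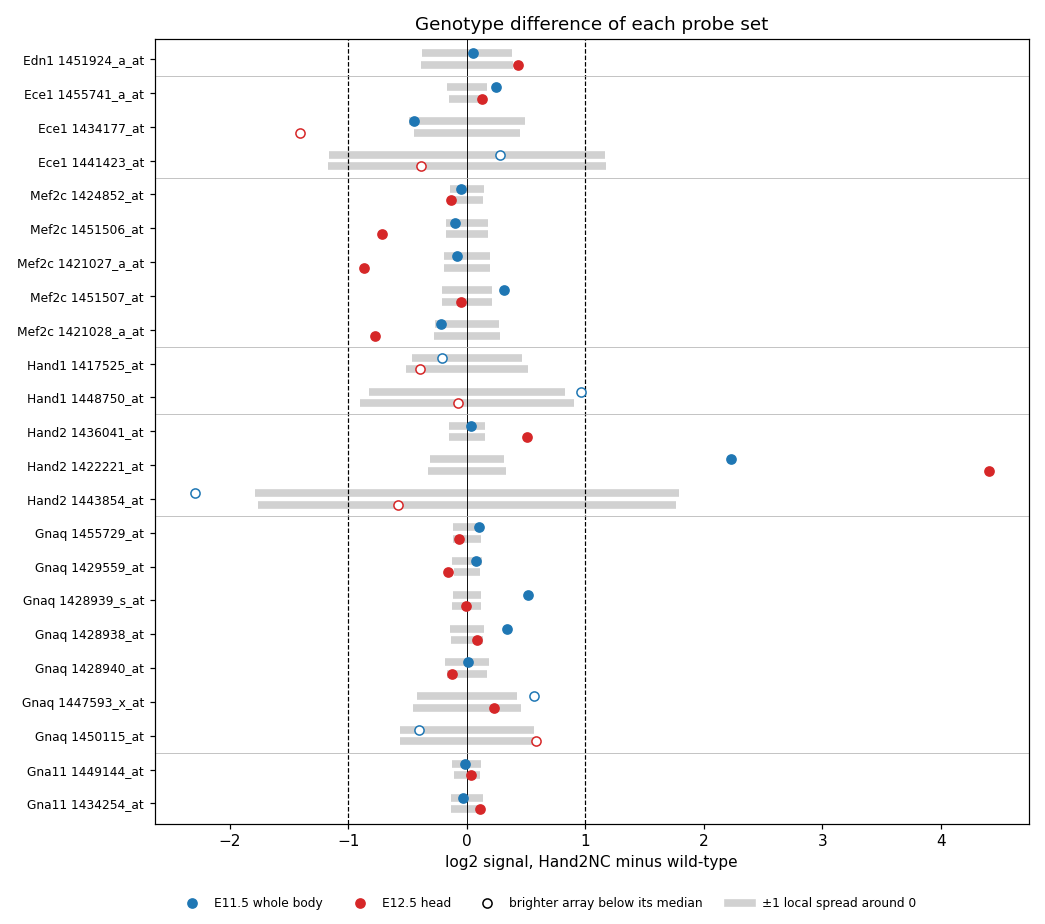
Log2 signal of Hand2NC minus wild-type for each of the 23 probe sets at E11.5 (blue) and E12.5 (red); open points lie below the signal filter, grey bars span 1 local spread either side of 0, and dashed lines mark 2-fold. *Hand2* 1422221_at stands at 2.23 and 4.40, and 3 of 5 *Mef2c* probe sets lie between -0.71 and -0.87 at E12.5.

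Heads at E12.5 were then compared with whole bodies at E11.5 within each genotype. Each of these comparisons shares its arrays with the genotype comparisons above. *Hand2* was lower in wild-type heads, whereas in Hand2NC its probe sets parted. By 1436041_at the log2 difference was -1.04 in wild-type, from 1214 to 592, at a spread of 0.34, and -0.57 in Hand2NC, from 1244 to 839, at a spread of 0.29. By 1422221_at it was -1.01 in wild-type, from 67.1 to 33.4 and thus below the filter, and 1.17 in Hand2NC, from 314 to 706, at a spread of 0.43. The wild-type value of 1422221_at turned to 0.12 with dim values raised to the median.

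Markers of tissues that make *Hand2* differed strongly between head and body. Of 13 kept heart muscle genes 12 were at least 2-fold lower in wild-type heads, and the median difference was -2.45. Of 7 kept limb bud genes 3 were at least 2-fold lower and 0 higher. Of 9 kept genes of sympathetic neurons, 4 were at least 2-fold higher and 0 lower, with a median of 0.76. Those 4 were *Th*, *Gata3*, *Chga* and *Insm1*, which other neurons and neuroendocrine cells also make, whereas the defining *Phox2a* and *Dbh* had -0.21 and -0.19, within their spreads. All were named after their values were seen. Over all genes, 2.61% were at least 2-fold lower and 4.45% at least 2-fold higher in wild-type heads. Summed signals were 27872 and 7001 for heart, 4725 and 3338 for limb bud and 1984 and 3505 for sympathetic neurons in body and head. In wild-type heads the heart sum was mostly *Actc1* (4155), and the limb bud sum mostly *Shox2* (1988) and *Tbx15* (924). The part of these tissues in the *Hand2* difference was not tested.

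*Gnaq* was higher in heads by all of its probe sets. In wild-type the 5 kept ones differed by 0.56 to 0.67 on the log2 scale, with a standard deviation between probe sets of 0.04, and 5 of 5 exceeded the local spread. In Hand2NC the 6 kept ones differed by 0.14 to 0.61, and 4 exceeded it. Of all kept probe sets, 21.1% in wild-type and 18.6% in Hand2NC were higher to that degree. Centring the arrays on their medians shifts all wild-type differences by -0.12 and leaves these above 0. All 13 neuron genes were also kept, with a median of 1.04 in wild-type and 8 of 13 at least 2-fold higher, where 4.45% of all genes were. The part of neurons in the *Gnaq* difference was not tested.

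The other members differed less between head and body. For *Gna11* the differences were 0.09 and 0.13 in wild-type and 0.15 and 0.27 in Hand2NC, all within the spread, and the first turned to -0.03 with arrays centred on their medians. For *Edn1* they were -0.49 in wild-type and -0.11 in Hand2NC, at spreads of 0.53 and 0.52. Bright *Ece1* had 0.01 and -0.11. Vascular endothelium, a known source of *Edn1* and *Ece1*, had 11 kept genes, of which 0 were past 2-fold in either genotype, with a median of -0.12 in wild-type and -0.11 in Hand2NC. Over all genes, 7.07% and 5.11% were past 2-fold in these comparisons.

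Of the kept members, 1 of 16 was called in wild-type, *Hand2* 1436041_at as lower, where 7.12% of all kept probe sets were called and 2.36% as lower. In Hand2NC 1 of 17 was called, *Hand2* 1422221_at as higher, where 4.91% were called and 2.65% as higher. These shares are near the background. Beyond the local spread, 5 of 16 were higher and 1 lower in wild-type, where 21.1% and 15.1% of all kept probe sets were, and 5 of 17 were higher and 2 lower in Hand2NC, where 18.6% and 15.9% were. The 5 higher ones in wild-type were all of *Gnaq*, as were 4 of the 5 in Hand2NC.

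**Figure D3:**
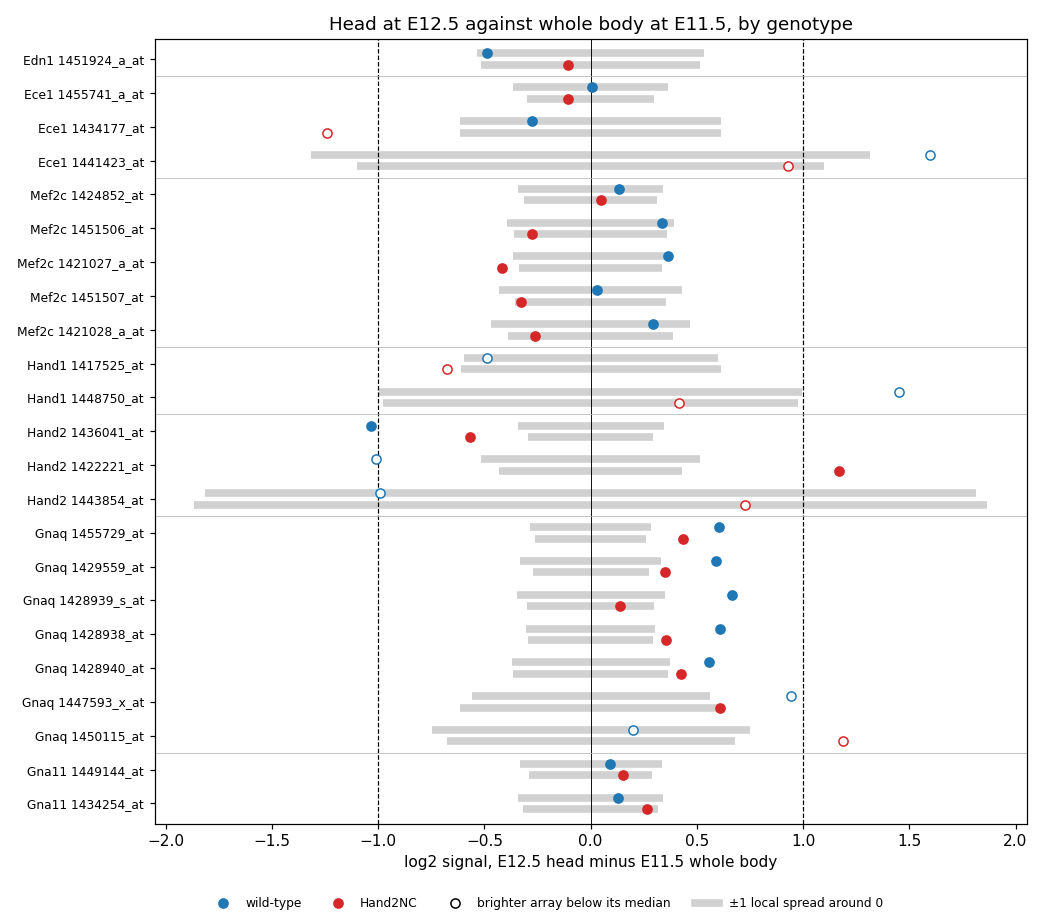
Log2 signal of E12.5 head minus E11.5 whole body for each probe set in wild-type (blue) and Hand2NC (red), with open points, grey bars and dashed lines for the signal filter, the local spread and 2-fold. The *Gnaq* probe sets lie to the right of 0 in both genotypes, and the *Hand2* probe sets 1436041_at and 1422221_at part in Hand2NC at -0.57 and 1.17.

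The rest of the endothelin pathway was set beside these genes through a list of 27 further ligands, receptors, enzymes, G proteins, phospholipases, calcium channels, Mef2 factors and histone deacetylases. For 26 a named probe set exists and 21 were kept at each stage, taking the brightest probe set of each gene. At E11.5, 0 of 21 were past 2-fold, 3 were higher and 1 lower beyond the spread, and the median was -0.01, as it was over all genes. At E12.5, 0 of 21 were past 2-fold, 2 were higher and 3 lower, and the median was 0.04 against 0.00 over all genes. Over all genes, 0.446% were past 2-fold at E11.5 and 0.398% at E12.5. Beyond the spread, 15.8% of all genes were higher and 17.1% lower at E11.5, and 16.3% and 15.8% at E12.5.

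*Edn3*, the endothelin of trunk crest and melanocytes, had signals of 266 and 189 at E11.5 and of 200 and 216 at E12.5. Its log2 differences were -0.49 and 0.11, at spreads of 0.28 and 0.25. Their signs were shared by 0 of 1 other kept probe set at E11.5 and by 1 of 2 at E12.5. *Ecel1*, a gene related to *Ece1*, had 136 and 124, then 154 and 104, with -0.57 in heads at a spread of 0.35. The deacetylases *Hdac9* and *Hdac5*, which bind Mef2 factors and hold back their targets, had -0.46 and -0.24 in heads at spreads of 0.25 and 0.17, and 0.06 and 0.02 at E11.5. *Hdac9*, with 315 in wild-type and 229 in Hand2NC at E12.5, was lower in the same heads as 3 of the *Mef2c* probe sets. The other *Mef2c* probe sets lay within their spreads there, and a link was not tested. *Hdac4*, named after its value was seen, had 0.10 in heads at a spread of 0.23, and its 1 other kept probe set had the opposite sign. The paralogues *Mef2a* and *Mef2d*, named after their values were seen, had 0.10 and -0.15 in heads, within their spreads of 0.13 and 0.16. These are the brightest probe sets. Their sign in heads was shared by 1 of 4 other kept probe sets for *Mef2a* and by 0 of 1 for *Mef2d*. *Plcb4*, the phospholipase gene below the receptor, had 0.18 and 0.09, and *Gnai3* had -0.08 and 0.08. Both were chosen in the same way.

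Of 9 genes of E proteins, Twist and Id factors, which pair with the Hand proteins or with their partners, all were kept and 0 were past 2-fold at either stage, where 0.446% and 0.398% of all genes were. Beyond the spread, 2 were higher and 0 lower at E11.5, and 1 was higher and 2 were lower at E12.5. Of all genes, 15.8% were higher and 17.1% lower to that degree at E11.5, and 16.3% and 15.8% at E12.5, so these counts are near the background. *Twist1*, a bHLH factor of head mesenchyme that pairs with the same partners, had signals of 2094 and 2299 at E11.5 and of 1595 and 2014 at E12.5. Its log2 differences were 0.13 at a spread of 0.12 and 0.34 at a spread of 0.10, so it was higher in Hand2NC at both stages by more than the spread, though narrowly at E11.5. The E-protein gene *Tcf3* had 0.05 and -0.14. *Id2* and *Id3*, whose proteins bind E proteins and keep them from DNA, had 0.28 and -0.11 at E11.5 and 0.07 and -0.11 at E12.5.

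Among ventral arch genes that lie below endothelin or Hand2, 10 of 12 had a named probe set, and 6 were kept at E11.5 and 7 at E12.5. At E11.5, 3 of 6 were higher and 1 lower by more than the spread, with a median of 0.15. At E12.5, 2 of 7 were higher and 3 lower, with a median of -0.22. Over all genes, 15.8% were higher and 17.1% lower at E11.5, and 16.3% and 15.8% at E12.5. *Gsc*, the homeobox gene goosecoid, was the only one past 2-fold, at E12.5, with 156 and 320 in wild-type and Hand2NC and a log2 difference of 1.03, where 0.398% of all genes were past 2-fold. *Pitx1*, *Dlx5* and *Dlx6*, named after their values were seen, had 0.85, 0.17 and -0.46 at E12.5. The ventral genes thus did not move one way.

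Among maxillary genes, 5 of 9 had lower signals in Hand2NC heads beyond the spread, by the brightest probe set of each gene. Of the 9 kept, 0 were higher to that degree and 0 past 2-fold, where 15.8% of all genes were lower and 16.3% higher beyond the spread. *Dlx2* and *Isl1*, named after their values were seen, had 0.13 and 0.11, within their spreads. The 1 other kept probe set of *Isl1* went the opposite way, lower in Hand2NC heads. *Irx5* had 1255 and 909, a log2 difference of -0.47 at a spread of 0.14, and *Lhx8*, a LIM homeobox gene, had 1069 and 895, a difference of -0.26. The nuclear receptor genes *Nr2f1* and *Nr2f2* had -0.20 and -0.17 in heads but 0.21 and 0.24 at E11.5. The probe sets of *Nr2f2*, 1 of the 5 lower genes, disagreed in heads. Of its 4 other kept probe sets, 1 shared the sign of the brightest in heads and 3 did at E11.5. The list median was -0.13 at E12.5 and 0.05 at E11.5. *Pou3f3*, named after its value was seen, was also 1 of the 5 lower genes, with -0.13 at a spread of 0.10 in heads. *Gsc*, *Pitx1*, *Irx5* and *Lhx8* are on these lists although the study had singled them out from these arrays. *Pou3f3*, *Isl1* and *Pax9*, also on the lists, were followed by the study in the same work on altered homeobox genes. The directions of all these genes are thus no independent evidence. Beside them, 1 of 12 kept genes of cranial neural crest and facial mesenchyme was higher and 4 were lower at E12.5, with summed signals of 16979 and 16379 in wild-type and Hand2NC. In the same heads 7 of 13 neuron genes were lower and 0 higher, with a median of -0.13, and the part of neurons or crest in the maxillary values was not tested.

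**Figure D4:**
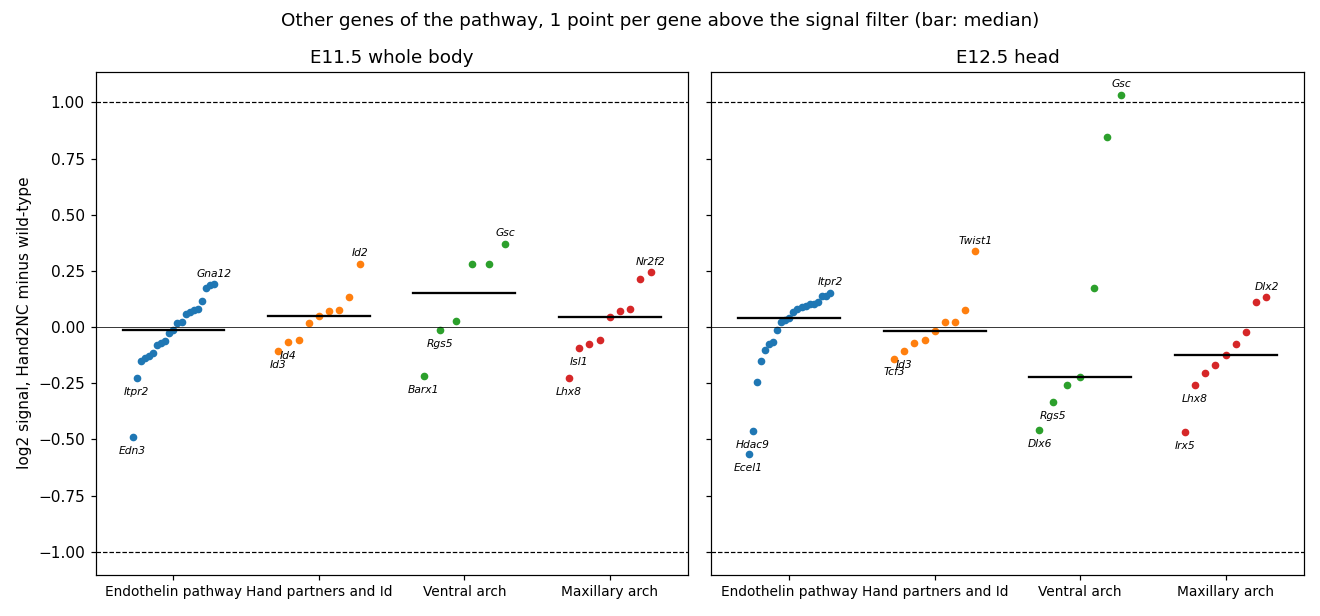
Log2 signal of Hand2NC minus wild-type for the further genes of the pathway at E11.5 (left) and E12.5 (right), 1 point per kept gene by its brightest probe set, ordered by value within each list, with black bars for list medians and dashed lines for 2-fold. Only *Gsc*, at 1.03 in E12.5 heads, passes a dashed line.

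The profiles most like those of the members were sought over the 4 arrays among 21282 probe sets of other named genes that reached the median on an array. The measure was the Euclidean distance between log2 signals centred on their own mean. For *Hand2* the probe set with the largest range was taken, 1422221_at, with 4.40 across arrays. The nearest to it was a *Casp9* probe set at a distance of 1.24, with signals of 4.94, 52.6, 7.48 and 135. *Cp* at 1.57 and *Esrrb* at 2.04 followed. This distance grows with the range, which here rests on dim wild-type values, so the lack of a closer match is no finding about *Hand2*. *Edn1*, with a range of 0.54, lay within 0.04 of *Mtmr11*, *Emp2* and *Gabpb2*. The dim *Hand1* probe set 1417525_at lay within 0.06 of *Txnrd2*, *Sting1* and *Zfpm1*. With 4 points and this many probe sets, small distances are easily met, and they are given as a description.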

How the data were processed

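Total RNA of pooled embryos was hybridised to 1 array of a GeneChip mouse genome type per genotype and stage. The authors deposited 1 intensity per probe set and array, a linear MAS5 signal (the submitters' processing notes give no version), for 45101 probe sets and with no detection calls. All 4 columns matched a sample. After leaving out 64 control probe sets, arrays were set to a common trimmed mean of 500 (2% at each end) before taking log2. Names came from the platform's annotation, in which 34945 of 45037 probe sets carry 1 symbol. Of these, 34741 gene identifiers were found in a RefSeq table (GRCm38.p6), which changed 0 symbols. The signal filter, the 2-fold call and the local spread are as given above. The number of arrays limits the precision. With 1 array a group no test was run, and counts under the settings above were read against all kept probe sets or genes.

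Members, lists and the naming rule were chosen with earlier results of these data known. The rule names all member probe sets and, from each of the 4 pathway and arch lists, genes past 2-fold between genotypes or else the 4 with the largest difference. Genes of the tissue and cell type lists, and other exceptions, are marked where named. Of a smooth muscle list, the only one not described above, 0 of 5 kept genes at E11.5 and 0 of 4 at E12.5 were past 2-fold between genotypes. Over all genes, 0.446% and 0.398% were.

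The alternatives were 12 other settings of scaling, filter, dim values and use of probe sets. The calling was tested on simulated data, whose outcome is not given here and does not take the place of replicate arrays. Computation was in Python 3.11.15 with pandas 2.3.3 and numpy 2.4.6, the loess in statsmodels 0.14.6, and the plots in matplotlib 3.10.9.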

Additional observations from a re-analysis of the deposited data

How the results depend on the processing

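No called value changed direction, and the number of members past 2-fold kept to 0 or 1 with the signal filter on. No paired analysis was possible because each group has 1 array. With no filter, 2 member probe sets were past 2-fold between genotypes at E11.5 and 2 at E12.5, and 4 in wild-type and 3 in Hand2NC between head and body. The share of all probe sets past 2-fold with no filter is not given here, so these counts cannot be read against a background. The count was 0 at both stages when both arrays had to reach their median, since *Hand2* 1422221_at is dim in wild-type, and 0 at E11.5 with a filter at the 75th percentile. By the brightest probe set of each gene it was 0 at both stages and 0 between Hand2NC head and body. By the mean over probe sets it was 0 at E11.5 and 0 in both comparisons of head with body. With a pseudocount of 32 it was 0 between wild-type head and body. The genotype difference of 1422221_at was 1.69 and 2.74 with dim values raised to the median and 1.80 and 3.50 with the pseudocount, and its change between stages 1.05 and 1.69. The further values of single probe sets were counted once for each alternative setting. In 637 of these pairs of value and setting the value moved by no more than the local spread, and in 17 by more. Signals below the array median, which hold *Hand1*, limit what can be said.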
